A study of Enallax costatus with 10 samples.

Results

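The stepwise transcripts are 52 of 32478 assembly genes of the green alga Enallax costatus whose mean level was lower at each stage of a drying course than at the stage before. They were chosen from the measured levels: the Hydrated mean had to be at least 1.4 times the Early desiccation mean, that mean 1.4 times the Late desiccation mean, and that mean 1.4 times the Dry mean. Both Hydrated libraries also had to lie above both Late desiccation libraries, both Late desiccation libraries above both Dry libraries, the Rehydrated mean had to stay under 4 times the Hydrated mean, and both Hydrated libraries had to hold at least 50 counts. The descent from Hydrated to Dry is therefore what chose these genes and is given as a description. Levels are the authors' values, which behave as length-normalised expression scaled by a TMM factor per library (TMM, the trimmed mean of M-values, equalises libraries on genes of middling change), and they have no absolute unit.

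The alga was strain CCAP 276-31, grown for 6 weeks, and every library came from drops of 40 µL of such cultures on cover glasses. Hydrated drops were collected at 0 h, Early desiccation (Early) drops at 2.5 h with 25% of the volume lost, Late desiccation (Late) drops at 7.5 h with 60% lost, and Dry drops at about 24 h, after 11 h in the flat state. Rehydrated drops were collected 1 h after water was given back. Each of the 5 stages had 2 libraries, with 1974807 to 3867190 expected counts each, and the labels do not say if the pair was grown apart, so a p-value here reflects how far these libraries differ, and that difference can be technical alone.

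Many green algae of dry habitats stop photosynthesis and growth as water is lost, survive in a dormant dry state and restart within a short time of rewetting. Whether the cells of this strain survived drying or restarted was not tested here. The amount of a transcript at any stage reflects how fast it is made and how fast it is broken down, and both processes can slow or stop in a drying cell. Sequencing reports each transcript relative to the others in its library, so a lower level can also mean that other transcripts took a larger part of the RNA, and fewer cells with a transcript cannot be told apart from less of it per cell. The files pair no identifier with a gene name, so no function is given to any member, and few identifiers are printed.

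Of 6262 genes with at least 50 counts in both Hydrated libraries, 1773 met the step from Hydrated to Early, 366 of these also met the step from Early to Late, and 67 also met the step from Late to Dry. All 67 had both Hydrated libraries above both Late libraries. The condition that both Late libraries lie above both Dry libraries left 52, and the limit on Rehydrated removed none. The members nearest to the limit had a smallest step of 1.407 and 1.409 times, and the nearest genes outside had 1.399 and 1.393 times, apart from 1 that printed as 1.4 but lay just below it. There were 23 members with a smallest step of 1.4 to 1.5 times and 3 with 2 times or more.

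Levels of the members in single libraries followed the stages. The median over members was 9.11 and 7.49 in the Hydrated libraries (replicates 1 and 2), 5.11 and 3.91 in Early, 2.07 and 3.17 in Late, and 0.965 and 0.933 in Dry. In Rehydrated it was 2.28 and 1.12. The medians of stages did not overlap from Hydrated to Dry, and the Rehydrated medians lay above both Dry medians. The members' summed counts went from 34064 and 20003 in Hydrated to 1190 and 1202 in Dry, which is 0.943% and 0.712% of all counts against 0.0477% and 0.0324%. In Rehydrated they were 0.0871% and 0.0211%, so as a share of counts replicate 2 lay under both Dry libraries.

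**Figure D1:**
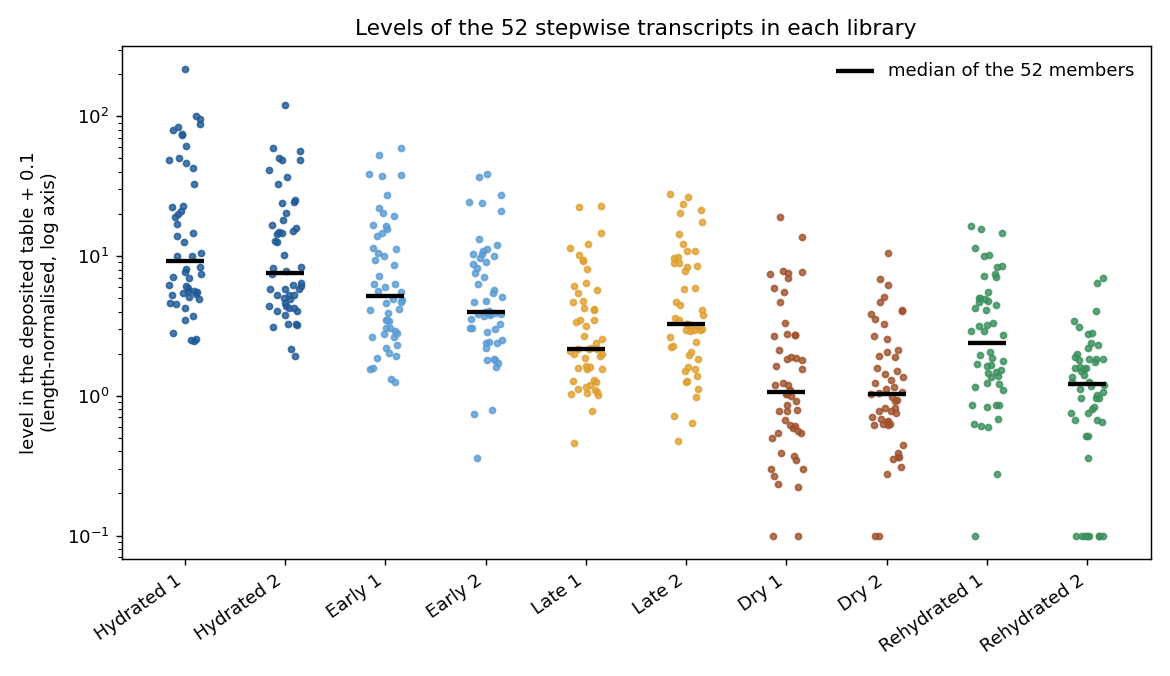
Level of each of the 52 members (points, sideways position within a library has no meaning) in each of the 10 libraries on a log axis, with 0.1 added so that values of 0 can be drawn, and the median as a bar. The median goes from 9.11 and 7.49 in Hydrated to 0.965 and 0.933 in Dry, and 8 members sit at 0 in Rehydrated replicate 2.

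The members covered a wide range of abundance. Their mean Hydrated level ran from 2.08 to 169 with a median of 7.92, against a median of 6.52 for the other 6210 genes with at least 50 counts in both Hydrated libraries. There were 10 members above a level of 40, 13 between 10 and 40 and 29 under 10. The abundant members had a median Hydrated to Dry ratio of 10.2, the middle ones 11.5 and the low ones 7.32. Counts in Dry were small for most: 30 members had under 10 counts in Dry replicate 1 and 27 in replicate 2, and 4 members had 3 or fewer counts over both Dry libraries, so the size of their last step rests on few reads.

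The most abundant member, TRINITY_DN182354_c2_g2, was much lower already in the Early drops, although the test was passed in Dry alone among the drying stages. Its level was 217 and 121 in Hydrated, 16.4 and 8.92 in Early, 6.32 and 8.26 in Late, and 2.69 and 2.47 in Dry. After rewetting it was at 1.54 and 0.418, under both Dry libraries (edgeR adjusted p = 0.219 against Dry). The mean went from 169 ± 68.3 in Hydrated to 12.6 ± 5.25 in Early (SD, n = 2), a ratio of 13.4, and this was the steepest first step among the members. In edgeR's quasi-likelihood test with Benjamini-Hochberg adjustment over all 16190 genes tested, in which a gene is called at an adjusted p under 0.05, the log2 fold change against Hydrated was -3.68 (SE 0.59, adjusted p = 0.0916) in Early, -4.36 (SE 0.61, adjusted p = 0.0571) in Late and -5.76 (SE 0.67, adjusted p = 0.00169) in Dry. Counts behind these values were 4711 and 2321 in Hydrated, 20 and 24 in Dry, and 11 and 2 in Rehydrated. The rule chose this gene high in Hydrated and lower at each drying stage, so nothing is read from its p-values against Hydrated. Of its 10 values, 6 were not whole numbers, so part of its reads was divided with other sequences.

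The next most abundant member, TRINITY_DN263889_c0_g1, had a more even course. Its level was 96.3 and 56.7 in Hydrated, 37.9 and 20.9 in Early, 14.6 and 17.4 in Late, and 13.5 and 3.93 in Dry. Late replicate 1 and Dry replicate 1 lay close together, and Dry replicate 2 was lower. In Rehydrated it was at 14.6 in replicate 1 and listed at 0 in replicate 2, with 16 and 0 counts. Its log2 fold change in Dry against Hydrated was -3.07 (SE 0.85, edgeR adjusted p = 0.0399). The rule used this contrast, so nothing is read from the p-value. This member is short, with a relative length of 0.140 where 1 is the median of the 6262 genes.

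The 3 steps were not equal. On the deposited scale, the median ratio was 1.81 from Hydrated to Early, 1.61 from Early to Late and 2.59 from Late to Dry. The median total ratio was 8.46, and it ranged from 3.59 to 75. The last step, on this scale, was the largest in 40 members, the first in 8 and the middle one in 4. On the log2 scale the steps took a median of 28.3%, 22.6% and 46.6% of the total descent.

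The 8 members with the largest first step had a median Hydrated level of 47.2, with a range from 2.24 to 169, beside 7.13 for the 40 members with the largest last step. Their first step had a median ratio of 3.49, and the later steps had 1.72 each. In the 40 members with the largest last step, the ratios were 1.76, 1.59 and 2.88, with the last reaching 11.0. In the 4 members with the largest middle step the ratios were 1.52, 1.90 and 1.59. These classes were cut from the same values as the members, so they describe the spread of shapes.

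**Figure D2:**
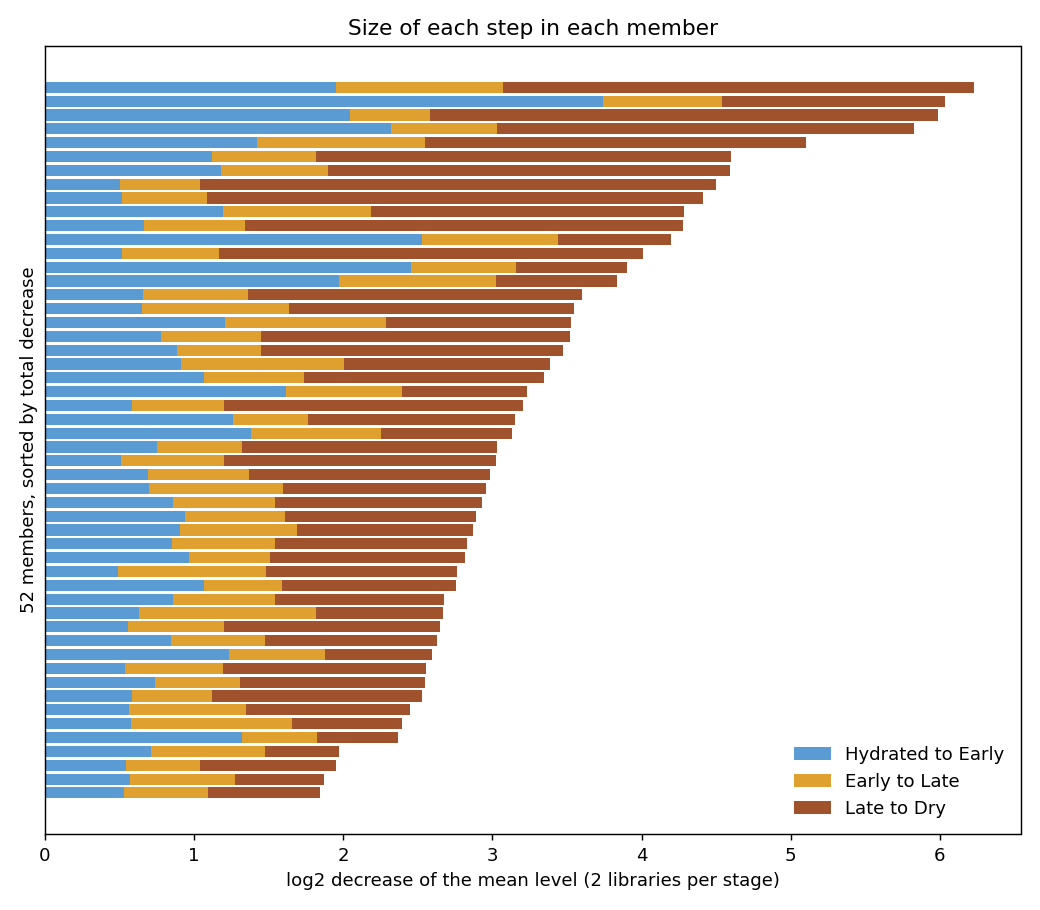
Log2 difference of the mean level (2 libraries per stage) for each step, stacked for each of the 52 members and sorted by the total. The Late to Dry part is the longest in 40 members, and the Hydrated to Early part is the longest in 8.

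Which later step was larger depended on the scaling. After the level columns were rescaled to equal sums, the median ratio from Early to Late became 3.57 and that from Late to Dry 1.49. The middle step was then the largest in 40 members, and 10 members no longer had a lower mean in Dry than in Late, leaving 42 with 3 descending steps. On CPM with edgeR's TMM-scaled library sizes (counts relative to library size, not divided by length), the ratios were 1.78, 1.45 and 2.48, 50 members kept 3 descending steps, and the last step was the largest in 38. The median log2 change from Early to Late over the 6262 genes was -0.28 on the deposited scale, -0.18 on CPM and -1.49 after rescaling to equal sums. The first step was in the same direction for all 52 members on all 3 scales, with a median of 1.78 to 1.95 times.

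**Figure D3:**
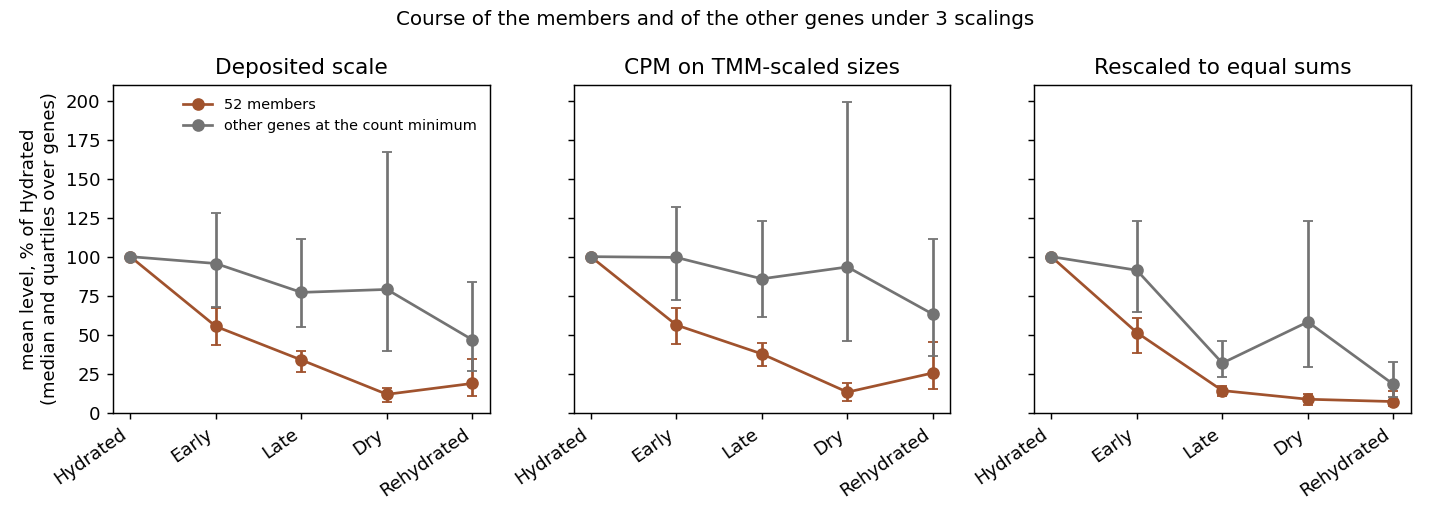
Mean level at each stage as a percent of the Hydrated mean, under 3 scalings, as the median (points) and quartiles (bars) over the 52 members and over the 6210 other genes with at least 50 counts in both Hydrated libraries. On the deposited scale the members' medians are 55.3%, 33.8%, 11.8% and 18.8%, and after rescaling to equal sums the Late value is 14.2%.

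The rule applied on the other scales chose partly other genes. On CPM it chose 24 genes, of which 23 were among the 52, and after rescaling to equal sums it chose 210 genes, of which 19 were among the 52. With single libraries left out it chose 93 genes without Hydrated replicate 2 (49 of the 52 among them) and 88 without Late replicate 2 (42 of the 52). A condition on both libraries of a stage then applied to the remaining library alone. This made the condition easier to meet, also in the 6 libraries described below. Fewer members stayed without Early replicate 1 (21 of the 52 among 36 genes), Late replicate 1 (23 among 46), Early replicate 2 (34 among 51) and Hydrated replicate 1 (36 among 41). Without Dry replicate 1 or 2, 51 and 43 stayed, among 72 and 56 genes, and without either Rehydrated library all 52 did. Within 6 libraries that hold no Hydrated replicate 2, no Late replicate 2 and no Rehydrated library, it chose 134 genes, of which 39 were among the 52. The libraries split in this way across stages: those 2 libraries and both Rehydrated libraries, called set B here, shared 147 genes that were absent from the other 6 libraries (set A), and the next highest count for any 4 libraries was 19. The labels give no batch.

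Rank within a library does not change with scaling. Among the 6262 genes, the members' median percentile was 60.3 and 62.2 in the Hydrated libraries, 41.8 and 30.4 in Early, 13.3 and 24.9 in Late, and 11.3 and 12.3 in Dry. In Rehydrated it was 28.4 and 33.8, above both Late values and overlapping those of Early. Averaged over the 2 libraries of a stage, the percentile went down from Hydrated to Early in 52 of 52 members, from Early to Late in 52 and from Late to Dry in 40. The rule asked for lower levels at these steps in the same libraries, so nothing is read from these counts. In rank, both Rehydrated libraries lay above both Dry libraries in 24 members, where 29.4% of the 6262 genes had this order. Dry values were chosen low by the rule, so nothing is read from this count either. Late replicate 1, of set A, was close in rank to Dry, and replicate 2, of set B, was higher.

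**Figure D4:**
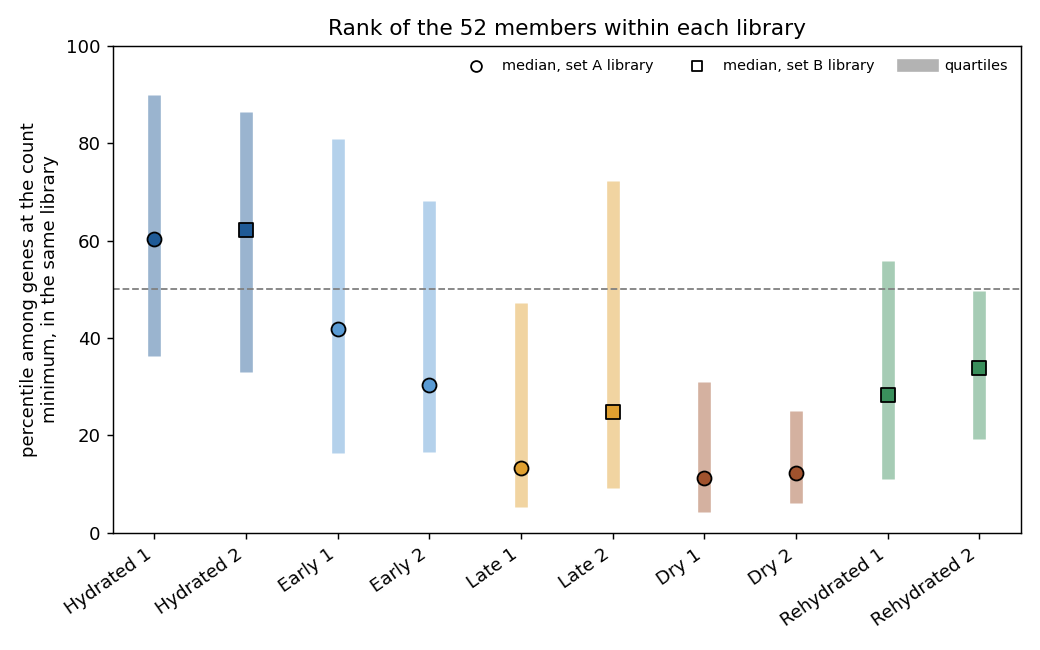
Percentile of the 52 members among 6262 genes in each library, as median (symbols, circles for set A and squares for set B) and quartiles (bars), with a dashed line at the 50th percentile. The median is 60.3 and 62.2 in Hydrated, 11.3 and 12.3 in Dry, and 28.4 and 33.8 in Rehydrated.

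Single libraries were less orderly than the means. Both Hydrated libraries lay above both Early libraries in 45 members, where 32.4% of the 6262 genes had this order, and both Early libraries lay above both Late libraries in 36 members, where 43.6% had it. All 8 libraries from Hydrated to Dry were ordered by stage in 30 members and in 1.68% of the 6262 genes. The rule fixed much of this order, so nothing is read from these shares. Within stages, Early replicate 1 was above replicate 2 in 36 members (44.9% of the 6262 genes), and Late replicate 1 was above replicate 2 in 12 (45.7%). Hydrated replicate 1 was above replicate 2 in 42 (69.4%), Dry replicate 1 above replicate 2 in 34 (46.0%) and Rehydrated replicate 1 above replicate 2 in 37 (78.0%). In 4 members the Hydrated libraries differed by more than 2 times.

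In the edgeR fit with stage alone, on filtered genes of all 10 libraries, no member passed the test before the drops were dry, but other fits called a few. Against Hydrated, edgeR called 0 of 16190 genes lower (0%) in Early and 0 (0%) in Late, and for Late against Early it also called 0 (0%). At an unadjusted p under 0.05, 10 members were lower in the first of these contrasts, 26 in the second and 1 in the last, among 1780, 1546 and 1222 genes in either direction. The rule chose the members lower at these stages, so nothing is read from these counts. Without a Rehydrated library the outcome differed: 3 members were called in Early against Hydrated without either one (0.613% and 0.654% of all genes), and in Late against Hydrated 5 were called without replicate 1 (0.434%) and 8 without replicate 2 (0.585%). DESeq2, on all libraries, called 3 members lower in Early than in Hydrated (2.67% of the genes it gave an adjusted p), 7 in Late than in Hydrated (1.86%) and none in Late than in Early (1.05%). Limma on log2(level + 1) called 0, 2 and 0 members (0.0247%, 0.0679% and 0% of genes lower). In Early against Hydrated, edgeR called 1 member without the filter on low counts (0.148%) and 4 in a fit of these stages alone (2.51%). In Late against Hydrated it called 2 without the filter (0.0955%), 2 with a term for the library sets described above (0.0679%) and 1 with the replicate number as a block (0.0371%). The members' log2 fold changes by edgeR had medians of -0.83, -1.40 and -0.54 in these contrasts, against -0.07, -0.03 and 0.05 over all genes tested, with median SEs of 0.60, 0.625 and 0.61.

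In Dry, 39 of 52 members fell against Hydrated by edgeR at an adjusted p under 0.05, where 5.38% of all genes tested were called lower. The rule used this contrast, so the count supports nothing. The called members had Hydrated to Dry ratios of 5.17 to 75, and the 13 others 3.59 to 8.13. Against Late, 8 members fell in Dry, where 7.82% of all genes tested were called lower, with ratios of 4.21 to 11.0. The median log2 fold change of members in Dry against Hydrated was -2.89, beside -0.50 over all genes tested. With libraries scaled by total counts alone, without a TMM factor, these became -4.35 and -1.96. The count of 39 depended on single libraries, and so did the share of all genes called, given in brackets. It was 14 without Hydrated replicate 1 (0.834%) and 20 without replicate 2 (0.999%). Removal of Early replicate 1 or 2 gave 22 each (1.56% and 1.57%), and removal of Late replicate 1 gave 25 (1.91%). With 1 Dry library left it was 7 (0.464%, replicate 1 removed) or 5 (0.315%, replicate 2 removed). A term for the library sets gave 25 (2.63%). Removal of either Rehydrated library raised both the count and the share of all genes called. DESeq2 gave 48 (8.87%), a fit of these stages alone 51 (16.7%), and edgeR with total counts 52 (25.5%). Without the filter on low counts it was 36 (2.19%), and by limma with 0.1 added it was 29 (4.45%). The 8 calls against Late became 3 on removal of either Early library (2.72% and 2.74%) or of Late replicate 1 (0.835%). They became 0 on removal of Late replicate 2 (0.849%) or of Dry replicate 1 or 2 (0.825% and 0.359%). They became 17 and 19 on removal of Rehydrated replicate 1 or 2 (11.2% and 11.4%), and DESeq2 called 10 (10.2%). They were 3 with the set term (3.63%), 15 with total counts (15.5%), 17 in a fit of these stages alone (21.4%), and 3 and 2 by limma with 1 and 0.1 added (8.02% and 5.96%).

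After 1 h of rewetting most members were still far under their Hydrated level. The mean Rehydrated level was a median of 18.8% of Hydrated (quartiles 11.0% and 34.2%), beside 11.8% in Dry. It was under 2 times the Dry mean in 32 members, at 50% or more of Hydrated in 4, and between these bounds in 16. Of the 6262 genes, 84.7% were under 2 times Dry and 46.5% at 50% or more of Hydrated. The 6210 genes other than the members were at a median of 46.7% of Hydrated in Rehydrated, beside 79% in Dry. The rule chose the members for high Hydrated and low Dry values, so nothing is read from these differences. The 4 became 8 without Rehydrated replicate 1 (26.9% of the 6262 genes) and 8 without replicate 2 (59.1%). They became 12 on CPM (60.9%) and 0 after rescaling to equal sums (13.5%).

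Both Rehydrated libraries lay above both Dry libraries in 20 members (14.4% of the 6262 genes), and both lay under both Dry libraries in 4 (48.6%). Both lay under both Hydrated libraries in 49 (60.0%). The rule chose Hydrated values high and Dry values low, so nothing is read from any share in this paragraph. The 2 Rehydrated libraries differed: replicate 1 was above both Dry libraries in 37 members (33.9%) and under both in 6 (52.4%), while replicate 2 was above both in 24 (18.8%) and under both in 21 (71.8%). The Rehydrated mean was above the Dry mean in 37 members (32.5%), and in 20 after rescaling to equal sums. A share of the 6262 genes is not given for this order of means after rescaling, so nothing is read from that change. The count of 20 members with both Rehydrated above both Dry libraries became 37 without Rehydrated replicate 2 (33.9%) and 5 after rescaling to equal sums (4.62%). Of all genes, 319 reached 100 counts in replicate 2, 1343 did in replicate 1, and 2043 to 4728 did elsewhere. The members' median count in Rehydrated replicate 2 was 5.5, with 33 members under 10 counts, and the part of this in the result was not tested.

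**Figure D5:**
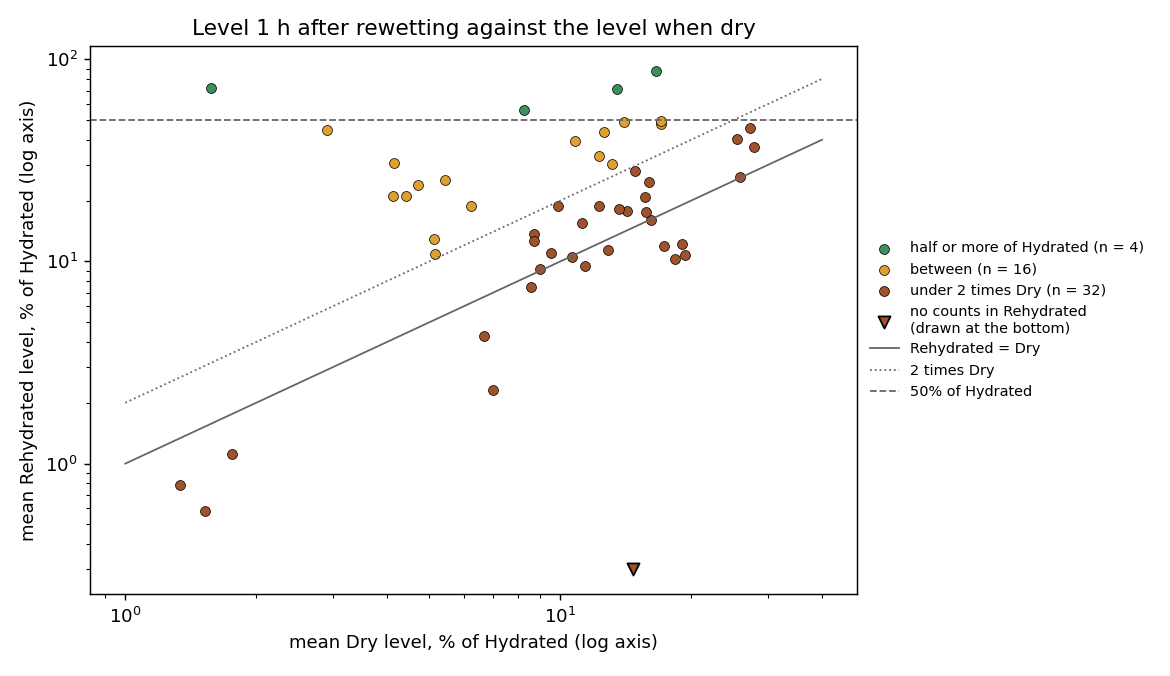
Mean Rehydrated level against mean Dry level of each member, both as a percent of its Hydrated mean on log axes, with lines for equal levels, 2 times Dry and 50% of Hydrated. The 32 members under 2 times Dry lie around the line of equal levels, 4 members lie at 56.4% to 87.6% of Hydrated, and 3 lie at the lower left, under 2% of Hydrated on both axes. The triangle is the member without counts in Rehydrated.

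By edgeR, 8 members rose in Rehydrated against Dry, where 5.66% of all genes tested were called higher, and Dry values were chosen low by the rule. Their Rehydrated means were 4.62 to 45.9 times their Dry means and 21.1% to 87.6% of Hydrated, and in all 8 the Rehydrated libraries lay above both Dry libraries. None of the 8 was called lower in Rehydrated than in Hydrated. DESeq2 called 8 members (9.72% of genes). The edgeR count was 0 with either Dry library removed (0.275% and 0.162% of all genes called for replicates 1 and 2). It was 2 with Hydrated replicate 1 (3.30%), Early replicate 1 (1.72%), Early replicate 2 (1.73%) or Late replicate 1 (2.07%) removed. It was 3 with Late replicate 2 removed (3.10%) and 4 with Hydrated replicate 2 removed (3.54%). A term for the library sets left none (0.00618%). Dry lies wholly in set A and Rehydrated wholly in set B, so this term rests on the Hydrated and Late libraries alone.

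The 2 members with the largest rise among these were of low abundance. They were picked for this rise, and the rule had chosen their Dry values low, so nothing is read from its size or p-value. TRINITY_DN216063_c4_g1 was at 4.44 and 3.92 in Hydrated, 1.77 and 0.257 in Early, 1.02 and 0.377 in Late, and 0.132 and 0 in Dry. It was at 3.06 and 3.002 in Rehydrated, so the Rehydrated libraries differed by 1.02 times and lay under both Hydrated values. Its counts were 64 and 52 in Hydrated, 1 and 0 in Dry, and 14 and 12 in Rehydrated. From these counts, on TMM-scaled library sizes, Rehydrated was 42.8 times Dry with an exact 95% interval of 7.02 to 1753, and 1.06 times Hydrated with an interval of 0.662 to 1.63 (intervals cover counting error only). The edgeR log2 fold change of Rehydrated against Dry was 5.39 (SE 1.32, adjusted p = 0.0233).

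TRINITY_DN220158_c1_g3 was at 2.71 and 3.01 in Hydrated, 1.49 and 0.643 in Early, 0.357 and 0.620 in Late, and 0.166 and 0 in Dry. Its step from Early to Late was not in the same direction on every measure: counts were 23 and 12 in Early and 8 and 15 in Late, and the edgeR log2 fold change of Late against Early was 0.13 (SE 0.87, adjusted p = 0.995). Rehydrated libraries were at 1.06 and 1.49, above both Dry and under both Hydrated values. With 2 and 0 counts in Dry and 6 and 10 in Rehydrated, the ratio was 13.2 with an exact 95% interval of 3.09 to 118. The edgeR log2 fold change of Rehydrated against Dry was 3.89 (SE 1.19, adjusted p = 0.0492). This gene too was picked for its rise from Dry values chosen low, so nothing is read from the p-value.

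The other 3 members at 50% or more of Hydrated had Rehydrated libraries that differed by 2.66 to 4.50 times. They stood at 7.40 and 1.65, at 2.61 and 6.92, and at 3.20 and 0.731 (replicates 1 and 2), with 4 to 30 counts. Replicate 1 was the higher in all but 1 of them, and in each the lower library by itself was under 50% of Hydrated.

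By edgeR, 14 members were lower in Rehydrated than in Hydrated, where 3.55% of all genes tested were called lower, and none was higher (2.24%). These 14 stood at 0% to 18.1% of Hydrated, and all 14 were also called lower in Dry against Hydrated. Both contrasts use the same Hydrated libraries, which the rule chose high. The 10 members with Hydrated levels above 40 were at a median of 8.49% of Hydrated after rewetting, those between 10 and 40 at 13.7% and those under 10 at 30.8%. The bands and the percents share the Hydrated level, so no relation is read from this order. In all 10 of the abundant members Rehydrated replicate 1 was above replicate 2, and 4 of them were at 0 in replicate 2. With Hydrated replicate 1 removed, 1 member was called (0.164% of all genes), and with replicate 2 removed 9 were (1.84%). Removing Early replicate 1 or 2 left 8 each (1.44% both times), and removing Dry replicate 1 or 2 left 9 and 8 (1.69% and 1.64%). Removing Rehydrated replicate 1 gave 27 (12.3%), and DESeq2 on all libraries gave 24 (6.69%). The set term left 8 (1.61%), and a fit of these stages alone called no gene at all (0%).

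A single member was called lower in Rehydrated than in Dry, where 11.0% of all genes tested were called lower. This was TRINITY_DN208387_c0_g1, named here after its values were seen, with levels of 6.98 and 8.18 in Hydrated, 6.17 and 4.60 in Early, 1.90 and 3.52 in Late and 1.10 and 1.13 in Dry. It had no counts in either Rehydrated library. Against a floor of 3 counts summed over that stage, Hydrated was 10.2-fold higher and Dry 1.82-fold higher. These ratios leave out counting error in the Hydrated and Dry counts, so they are not lower limits. The adjusted p of this member by edgeR was 0.0441, on 3.73 and 5 counts in Dry. In the fits with 1 library removed, no member was called lower in Rehydrated than in Dry, except without Rehydrated replicate 1, where 3 were (17.6% of all genes). DESeq2 called no member lower (12.1%).

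Some members shared an assembly cluster. The 52 members lay in 52 different components of the assembly and 49 clusters of components, with 3 clusters holding 2 members each. In 1 of these clusters the members were at 16.9 and 14.4 and at 20.9 and 14.6 in Hydrated. In Late they were at 5.38 and 9.77 and at 4.64 and 12.04, and in Dry at 0.439 and 0.942, and at 1.14 and 0.526. Their last step had ratios of 11.0 and 9.99, the highest and the third highest among the members. Sequences of a cluster can be parts or copies of 1 gene, so such members are not independent.

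In another cluster the members differed strongly between the Hydrated libraries, with 99.7 and 15.8 in 1 and 50.2 and 14.8 in the other. Their Early levels were 11.2 and 11.9, and 7.14 and 9.64. In Dry they were at 0 and 2.04, and at 0.290 and 0.577, and in Rehydrated at 1.29 and 0, and at 0.510 and 0. These and the most abundant member were the 3 members under 2% of Hydrated in both Dry and Rehydrated. The size of their first step, 4.99 and 3.87 times, rests mainly on Hydrated replicate 1. In the third cluster the total ratios were 11.5 and 8.90.

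Other genes of the same clusters were looked at for the same course. There were 27 further genes with at least 50 counts in both Hydrated libraries in 16 of the 49 clusters. Of these, 8 had means descending at all 3 steps, which is 29.6%, beside 12.1% of the 6262 genes. Their medians were 72.9% of Hydrated in Early, 54.0% in Late and 54.0% in Dry. Reads divided between sequences of a cluster can make such courses alike, so these shares are a description.

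Length and divided reads were not used by the rule. Relative length, taken from the ratio of counts to level, had a median of 1.02 (quartiles 0.626 and 1.32), beside 1.01 (0.715 and 1.41) for the 6210 others. By quartiles of length over all genes tested, 6, 11, 11 and 24 members lay in the quartiles from shortest to longest, where the 6262 genes had 8.54%, 17.4%, 28.8% and 45.2%. The shortest member had a relative length of 0.108 and the longest 5.15. At least 1 value that was not a whole number, a sign of reads divided between sequences, occurred in 17 members (32.7%) and in 38.5% of the others. In quartiles of mean expression over all genes tested, 0, 12, 20 and 20 members lay from lowest to highest, where the 6262 genes had 1, 221, 2329 and 3711. Mean expression takes in the libraries that the rule used, unlike length and divided reads, so nothing is read from these counts.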

How the data were processed

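RNA of 10 libraries was sequenced, 2 for each of 5 stages. Tools named in the submitters' processing notes are RSEM 1.2.28, Bowtie2 2.2, Trimmomatic 0.35, CASAVA 1.4 and DESeq2, without their roles. Per the labels, an Arabidopsis kit with 105 added custom oligonucleotides removed ribosomal RNA. The authors deposited expected counts per assembly gene, of which 11.4% were not whole (tolerance 0.005), and a score, a length-normalised level scaled by TMM as far as the values show, with column sums from 535618 to 2610432 and no stated formula. Column names start with Scos and titles with Ecos, so each column's sample, and thus its stage, rests on the shared time code and replicate number.

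Members came from the deposited score by the rule given above. Expected counts were rounded and fitted in R 4.3.3 with edgeR 4.0.16 (filterByExpr with minimum count 10 and minimum total 15, TMM, stage as factor, all 10 libraries, 16190 genes, 97% to 99.6% of counts kept); p-values were adjusted by Benjamini-Hochberg over all genes tested and called under 0.05. The SE is the absolute fold divided by the root of its F statistic. Alternatives used DESeq2 1.42.0 and limma 3.58.1. The edgeR script was tested on simulated data. No libraries were merged: within stages, chi-square over degrees of freedom was 10 to 37.2, above sampling noise. The members, lists and tests were chosen with earlier results of these data known. The identifiers printed are the 2 members with the highest Hydrated level and the 2 with the largest Rehydrated to Dry ratio among members called higher, plus the 1 member called lower in Rehydrated than in Dry, which was chosen after its values were seen.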

Additional observations from a re-analysis of the deposited data

How the results depend on the processing

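The number of genes chosen by the rule, 52, was 84 with steps of 1.3 times and 19 with 1.6 times, 79 with a count minimum of 20, 24 on CPM, 210 after rescaling to equal sums, 134 in set A (an alternative added after the data were seen), and 36 to 93 without single libraries. A count minimum of 100 (35 genes) and no conditions on single libraries (67) stayed within 1.5 times. Shares of all genes called stand in brackets. Members called lower in Dry than in Hydrated (39) were 25 with a term for the library sets (2.63%) and 5 to 51 without single libraries. Members called higher in Rehydrated than in Dry (8) were 2 without a filter (1.92%), 0 with total counts (1.23%), 0 in a fit of these stages alone (4.24%), 0 with the set term (0.00618%), 2 or 3 by limma with 1 or 0.1 added (5.72% or 5.97%), and 0 to 8 without single libraries. Members called lower in Rehydrated than in Hydrated (14) were 24 by DESeq2 (6.69%), 28 without a filter (3.63%), 42 with total counts (24.3%), 0 in a fit of these stages alone (0%), 8 with the set term (1.61%), 33 by limma with 1 added (12.5%), and 1 to 27 without single libraries. Members at 50% or more of Hydrated after rewetting (4) were 0 after rescaling to equal sums, 12 on CPM and 4 to 8 without single libraries. Members with both Rehydrated above both Dry values (20) were 5 after rescaling to equal sums and 20 to 37 without single libraries; by rank, added after the data were seen, they were 24. Members under 2 times Dry (32) ranged from 27 to 37 without single libraries. The causes were not tested.

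With replicate number as a block, the counts of 39, 8 and 14 became 39 (4.55%), 7 (6.88%) and 16 (3.22%). Deviations of same-numbered libraries correlated between -0.11 and 0.28 over the 10 pairs of stages. This gives little sign that the numbers pair the samples, but it cannot exclude such pairing. A fit without a library leaves its stage with 1 library, assumed to vary like the other stages. Low counts in Dry and in Rehydrated replicate 2 limit the size of the last step and of the values after rewetting.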
